A study of Mus musculus with 7 samples.

Results

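Collagens are the main structural proteins of the cardiac extracellular matrix. Here 10 collagen genes were followed in the hearts of mice that carried transferred human CD4+ T cells and in the hearts of untreated mice. They were taken by symbol from the 20343 genes of the deposited count table, all 10 were present, and all 10 passed the filter on low counts that 7667 genes passed. The fibrillar chains were Col1a2, Col3a1, Col5a1 and Col5a2, the basement membrane chains were Col4a1 and Col4a2, and the others were Col6a3, Col8a2, Col15a1 and Col16a1. The 7 mice were all of the immunodeficient NSG-DR1 strain, written NSG-DRB1*0101 in the labels, which carries a human HLA class II transgene and lacks its own T, B and natural killer cells but keeps macrophages. The 4 control mice received no cells, while the 3 transferred mice were given human CD4+ T cells, and the apex of the heart was taken 6 weeks later. Polyadenylated RNA was sequenced. Age, sex and the sharing of T cell donors between mice are not given in the sources used here. The series title places the comparison in work on T cells and cardiac inflammation with age.

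Collagen molecules are trimers of chains that wind into a triple helix. Type I and type III collagen form the stiff fibrils that bear load between muscle bundles, and type V collagen sits within those fibrils and limits their width. In the heart, fibroblasts make most of the fibrillar chains, and scarring is marked by their increase. Type IV collagen forms a sheet-like network in the basement membrane around every cardiomyocyte and capillary, where endothelial and mural cells add to its supply. Type XV collagen lies just outside that membrane, type VI forms beaded filaments between membrane and fibrils, type VIII forms short-chain networks, and type XVI associates with the surface of fibrils.

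Levels below are in CPM, a gene's counts relative to all counts in the analysed part of the table, scaled by the trimmed mean of M values (TMM). Column totals over that part ranged from 16402194 counts in control heart 4 to 25190580 in control heart 3, and 3 counts corresponded to between 0.115 and 0.189 CPM. The rows analysed end early on chromosome 8, so Col1a1 and other collagens elsewhere in the genome are not analysed here. Of 11 cardiomyocyte markers listed, 7 were in the table, and their summed level was 98614 to 126350 CPM, so the labelled tissue was borne out in every heart. In this bulk tissue, fewer cells of a type and less RNA per cell cannot be told apart.

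None of the 10 collagens differed between the groups past the threshold. For the 4 fibrillar chains the upper limits of the 95% intervals of the fold change ran from 1.06 to 1.20. Every member had a log2 fold change (transferred minus control) below 0, from -0.33 for Col8a2 to -0.03 for Col15a1, with a median of -0.20. Over all 7667 tested genes the median was -0.00199, and 50.3% of genes were below 0. By the edgeR quasi-likelihood test, 0 of 10 members had an adjusted p under 0.05 in either direction, where 0.13% of tested genes were called higher and 0.104% lower. At an unadjusted p under 0.05, 0 of 10 members were lower, against 5.27% of tested genes. DESeq2 and limma-voom also called 0 of 10. In 0 of 10 members were the transferred hearts all below the control hearts, a separation found in 5.22% of tested genes. The shared sign of the 10 estimates is not 10 separate observations, since the members moved together from heart to heart, as described below.

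**Figure D1:**
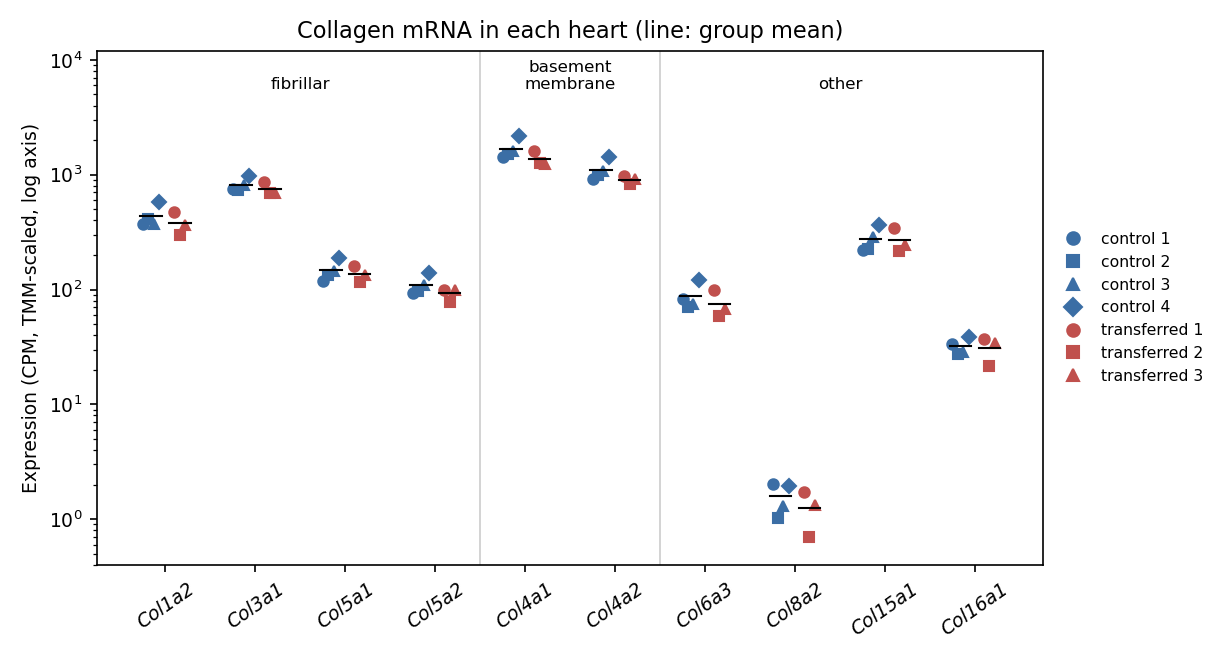
Expression of the 10 collagens in CPM on a log axis, with a point for each of 4 control hearts (blue) and 3 transferred hearts (red) and a line at each group mean. The groups overlap for every gene, and control heart 4 is the highest point for 9 of the 10.

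Col3a1, the chain of type III collagen, was the most abundant of the 4 fibrillar transcripts analysed. It lies on chromosome 1 at 45311538 to 45349706 of GRCm38, on the plus strand. Control hearts 1 to 4 held 744, 728, 813 and 978 CPM, and transferred hearts 1 to 3 held 869, 692 and 688 CPM. Transferred hearts 2 and 3 lay below all control hearts, while transferred heart 1 lay above 3 of the 4. The means were 816 ± 114 CPM (SD, n = 4) and 749 ± 103 CPM (SD, n = 3), an estimated log2 change of -0.12 (SE 0.13) (edgeR adjusted p = 0.754). The 95% interval of the fold change ran from 0.756 to 1.12.

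Col1a2, the second chain of type I collagen, is encoded on chromosome 6 at 4505618 to 4541543, also on the plus strand. It was at 375, 409.6, 371 and 574 CPM in control hearts 1 to 4 and at 473, 296 and 362 CPM in transferred hearts 1 to 3. The groups overlapped, with the highest value in control heart 4 and the lowest in transferred heart 2. The log2 fold change was -0.20 (SE 0.19) (edgeR adjusted p = 0.740), and the 95% interval of the fold change ran from 0.646 to 1.18.

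The type V chains were less abundant. Col5a1 (chromosome 2, 27886381 to 28039510) held 119.6, 133, 146 and 188 CPM in control hearts and 159.8, 116 and 135 CPM in transferred hearts. Its group means of 147 ± 29.6 CPM (SD, n = 4) and 137 ± 21.8 CPM (SD, n = 3) differed by less than either SD. Col5a2 (chromosome 1, 45374331 to 45503282) lies downstream of Col3a1 on the same chromosome and is read from the opposite strand. It held 93.6, 97.1, 109 and 139 CPM in control hearts and 99.7, 78.5 and 99.5 CPM in transferred hearts, with an estimated log2 change of -0.25 (SE 0.15) (edgeR adjusted p = 0.552). Its values overlapped between the groups, although transferred heart 2 was below every control heart.

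Col4a1 and Col4a2, the 2 chains of the ubiquitous type IV trimer, were the most abundant members and had the smallest unadjusted p of the 10. Both lie on chromosome 8 and face away from each other, Col4a1 on the minus strand (11198423 to 11312889) and Col4a2 on the plus strand (11312805 to 11449287). Their spans overlap by 85 bases, which is small beside exon lengths of 7523 and 6450 bases. Col4a1 held 1425, 1508, 1615 and 2185 CPM in control hearts and 1595, 1267 and 1248 CPM in transferred hearts. Transferred hearts 2 and 3 were below all control hearts and transferred heart 1 was between control hearts 2 and 3. The means were 1683 ± 343 CPM (SD, n = 4) and 1369.8 ± 195 CPM (SD, n = 3), and the log2 fold change was -0.30 (SE 0.16), with an interval of the fold change from 0.639 to 1.04 (edgeR unadjusted p = 0.0871, adjusted p = 0.496).

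Col4a2 was highest in control heart 4 and lowest in transferred heart 2. It held 909, 995, 1075 and 1412 CPM in control hearts and 982, 823 and 917 CPM in transferred hearts. The groups overlapped, since control heart 1 lay below transferred hearts 1 and 3. The log2 fold change was -0.27 (SE 0.14) (edgeR unadjusted p = 0.0870, adjusted p = 0.496). The ratio of Col4a2 to Col4a1 was 0.638, 0.660, 0.666 and 0.646 in control hearts and 0.616, 0.650 and 0.735 in transferred hearts. The groups overlapped in this ratio, and transferred hearts 1 and 3 held its lowest and highest values.

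Sequence at the starts of this head-to-head pair and upstream of the fibrillar genes Col1a2 and Col3a1 is shown to set the classes side by side. The sequences are from RefSeq (GRCm38.p6), whose promoter table held 9 of the 10 members. The RefSeq starts differ for some members from the ends of the gene spans given here, as for Col4a1, whose RefSeq start at 11312826 lies inside its span. The first sequence is the plus-strand stretch from the RefSeq start of Col4a2 to that of Col4a1, chr8:11312805-11312826, 22 bases that lie within the annotated spans of both genes, in capitals throughout. The other sequences lie upstream of Col1a2 (chr6:4505368-4505492, plus strand, ended where an exon of the GENCODE annotation begins) and Col3a1 (chr1:45311288-45311537, plus strand), and capitals mark the motifs GGGCGG and TATAAA.
Col4a1 and Col4a2 shared start: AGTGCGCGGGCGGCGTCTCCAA
Col1a2: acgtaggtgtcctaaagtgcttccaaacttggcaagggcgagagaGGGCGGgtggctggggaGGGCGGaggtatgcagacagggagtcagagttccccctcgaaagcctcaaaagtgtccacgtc
Col3a1: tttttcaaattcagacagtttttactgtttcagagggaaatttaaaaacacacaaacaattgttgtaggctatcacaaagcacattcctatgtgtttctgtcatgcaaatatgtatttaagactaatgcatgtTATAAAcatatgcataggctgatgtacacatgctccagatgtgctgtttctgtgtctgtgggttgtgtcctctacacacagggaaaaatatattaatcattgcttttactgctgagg

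Over the 250 bases before each RefSeq start, which for Col4a1, Col5a1, Col6a3, Col15a1 and Col16a1 reach into the gene span given here, and on both strands, the motif CCAAT was present in 4 of the 9 members (Col1a2, Col4a1, Col4a2 and Col16a1), GGGCGG in 5 and TATAAA in 1, Col3a1. The shares of all 32851 such windows in the table were 33.9%, 32.7% and 12.4%. The window of Col3a1 had a GC content of 35.2%, against 62.0% for Col1a2, 74.4% for Col4a1 and 73.6% for Col4a2. The windows of Col4a1 and Col4a2 lie within the annotated span of the partner gene. These matches describe the letters of the windows and were not tested for function.

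The groups overlapped for the remaining members too. Col15a1 (chromosome 4, 47207655 to 47313167) was the most abundant of them. It held 221, 227, 288 and 362 CPM in control hearts and 344, 215 and 245 CPM in transferred hearts, and its log2 fold change of -0.03 was the smallest of the 10 (standard error 0.21). The highest values of the groups were in control heart 4 and transferred heart 1.

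Col6a3 (chromosome 1, 90766860 to 90844001), a chain of the beaded filaments, held 82.1, 70.9, 75.1 and 121 CPM in control hearts and 99.1, 59.1 and 67.1 CPM in transferred hearts. Its log2 fold change was -0.21 (SE 0.23.) Col16a1 (chromosome 4, 130047817 to 130099277) held 33.3, 27.5, 28.5 and 38.6 CPM against 37.2, 21.5 and 34.2 CPM, an estimated log2 change of -0.05 (SE 0.19.) In 3 of its 7 values the count had a fractional part, as in 1 value each of Col1a2, Col4a1, Col4a2 and Col15a1. An antisense long noncoding gene, Gm12963, overlaps Col16a1 by 606 bases and held at most 46 counts, against at least 456.5 for Col16a1, and reads of the pair cannot be told apart without strand.

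Col8a2 (chromosome 4, 126286794 to 126314330), a network-forming chain known from the cornea and vessel wall, was barely expressed. It held between 15 and 42 counts in a heart, at 2.04, 1.03, 1.30 and 1.96 CPM in control hearts and 1.72, 0.705 and 1.33 CPM in transferred hearts. The 95% interval of its fold change, from 0.436 to 1.46, was the widest of the members.

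**Figure D2:**
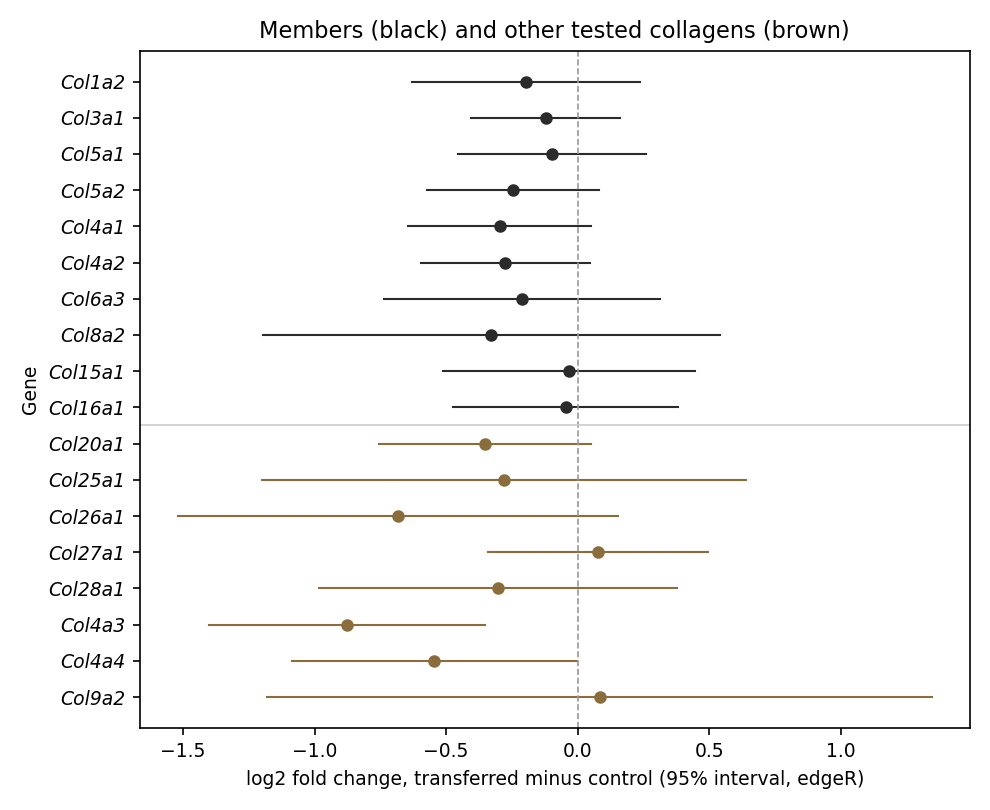
Log2 fold changes, transferred minus control, with 95% intervals for the 10 members (black) and the 8 other collagens that passed the filter (brown). All 10 member intervals include 0, and those of Col4a3 (-1.40 to -0.35) and Col4a4 (-1.08 to -0.0043) lie below 0 without passing the adjusted threshold.

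Levels of single genes were compared per kilobase of combined exon length. Over the 7 hearts the order of mean level was Col4a1 (206 CPM per kilobase), Col4a2 (158), Col3a1 (142), Col1a2 (78.3), Col15a1 (47.4), Col5a1 (16.7), Col5a2 (15.5), Col6a3 (7.54), Col16a1 (5.04) and Col8a2 (0.280). The most and the least abundant thus differed 735-fold. The ranges over hearts overlapped for Col4a1 and Col4a2, Col4a2 and Col3a1, Col1a2 and Col15a1, Col5a1 and Col5a2, and Col6a3 and Col16a1. Within single hearts, however, Col4a1 exceeded Col4a2 in 7 of 7 and Col4a2 exceeded Col3a1 in 6 of 7. Col3a1 exceeded Col1a2 in 7 of 7 without overlap of their ranges, at a ratio of means of 1.81.

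The balance between fibrillar and basement membrane chains was then read within each heart, where scaling cancels. The 4 fibrillar chains made up 36.3%, 35.3%, 34.9% and 34.3% of the summed CPM of both classes in control hearts 1 to 4 and 38.3%, 36.1% and 37.2% in transferred hearts 1 to 3. The lowest transferred heart lay below the highest control heart and the other transferred hearts lay above all controls. The log2 ratio of the class sums averaged -0.88 ± 0.05 without transfer (SD, n = 4) and -0.75 ± 0.07 with it (SD, n = 3), a difference of 0.13. These sums are not scaled to gene length, so they compare hearts and not the classes. Per kilobase the log2 ratio averaged -0.57 ± 0.06 without transfer (SD, n = 4) and -0.45 ± 0.07 with it (SD, n = 3), a difference of 0.12. This ratio is a score over genes chosen with earlier results known, so it is a description with no test. The class sums were 1332, 1368, 1439 and 1879.7 CPM of fibrillar chains in control hearts and 1602, 1183 and 1285 CPM in transferred hearts. For the basement membrane pair they were 2334, 2503, 2690.0 and 3597 CPM in control hearts and 2577, 2090.2 and 2164 CPM in transferred hearts. The median log2 fold change was -0.16 over the fibrillar chains and -0.29 over the basement membrane pair.

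Of the 8 single ratios of a fibrillar to a basement membrane chain, all 8 had a higher mean in transferred hearts. Over all other tested genes the mean ratio was higher for 88.1% relative to Col4a1 and for 86.2% relative to Col4a2, so this count is near the background and is not particular to fibrillar chains. Of the 4 ratios to Col4a1, 2 did not overlap between the groups, those of Col3a1 and Col5a1. Over all 8 ratios 3 did not overlap, the third being Col5a1 relative to Col4a2. The ratio of Col3a1 to Col4a2, the partner chain, overlapped between the groups. Col3a1 relative to Col4a1 was singled out among these after its values were seen. It was 0.522, 0.483, 0.503 and 0.448 in control hearts and 0.545, 0.546 and 0.551 in transferred hearts, so every transferred heart lay above every control heart. Among all other tested genes, 13.5% had a ratio to Col4a1 that separated the groups in this direction, and the ratios share their denominator.

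**Figure D3:**
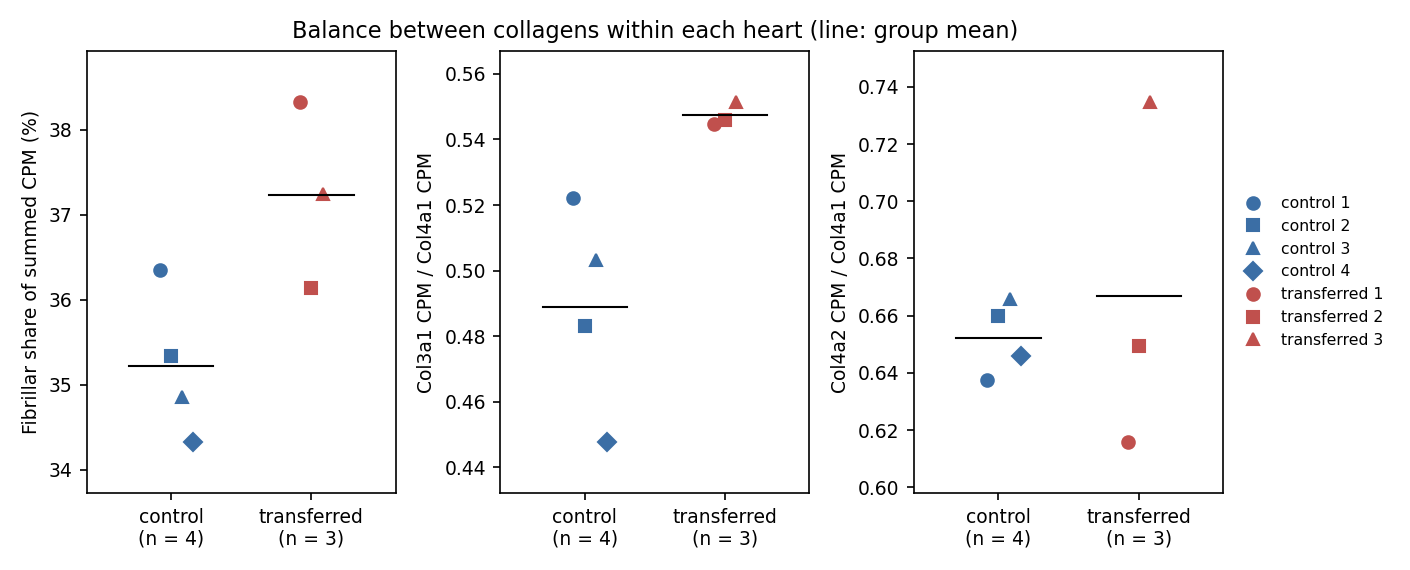
Fibrillar share of the summed CPM of fibrillar and type IV chains (left, percent), ratio of Col3a1 to Col4a1 (middle) and ratio of Col4a2 to Col4a1 (right), with a point per heart and a line at each group mean. The middle ratio is at 0.545 to 0.551 in transferred hearts and at 0.448 to 0.522 in control hearts, and the vertical axes do not start at 0.

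The larger pattern in these genes was between hearts of the same group. Control heart 4 was the highest of 7 hearts for 9 of 10 members, the exception being Col8a2, which was highest in control heart 1. Transferred heart 2 was the lowest of 7 for 8 members and transferred heart 3 for the other 2, Col3a1 and Col4a1. Transferred heart 1 was the highest transferred heart for 10 of 10. Relative to each member's mean log2 CPM over the 7 hearts, the median deviation was 0.48 in control heart 4, 0.21 in transferred heart 1 and -0.34 in transferred heart 2. Control heart 4 also had the smallest column total, and the part of depth in its values was not tested.

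**Figure D4:**
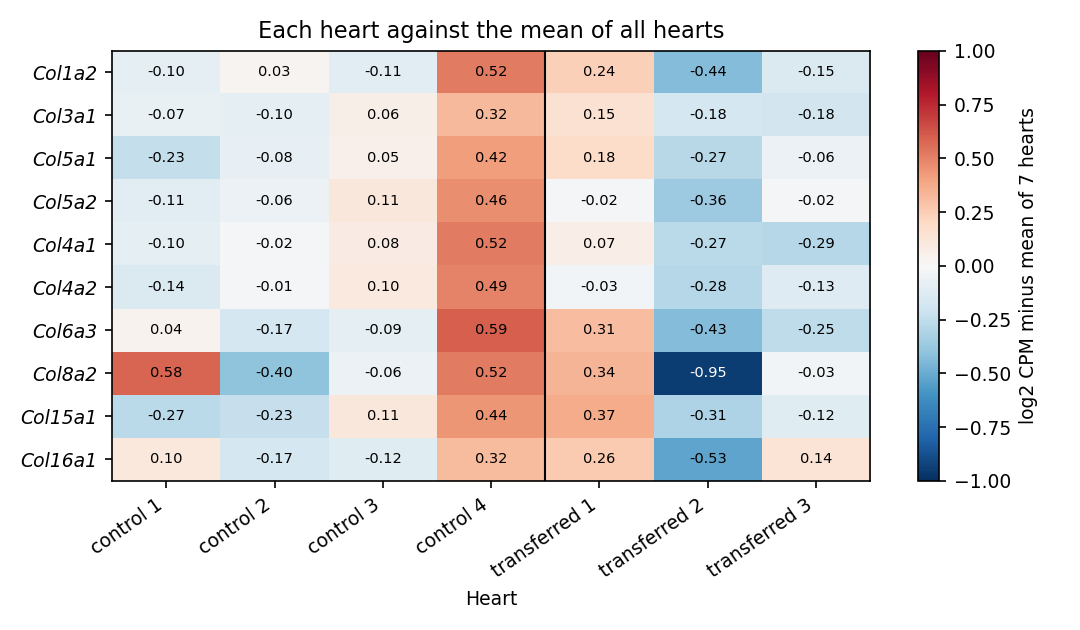
Log2 CPM of each member minus its mean over the 7 hearts, with genes as rows and hearts as columns (red above the mean, blue below). Control heart 4 is above the mean for all 10 genes, by 0.32 to 0.59, and transferred heart 2 is below it for all 10, by -0.18 to -0.95.

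Because of this, single hearts decided the estimates. Without control heart 4, the median log2 fold change of the members was -0.03 and 3 of 10 were above 0. Without transferred heart 2 it was -0.06, again with 3 of 10 above 0, and without transferred heart 1 it was -0.32 with 10 of 10 below 0. With 1 heart left out, the log2 fold change ran from -0.42 to -0.15 for Col4a1 and from -0.35 to -0.13 for Col4a2. The number of members called was 0 in each of these fits.

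The labels name no batch, but the identifiers of control heart 1 and transferred heart 1 begin with letters and those of the other hearts are numbers. Between the 2 letter-named hearts, 9 of 10 members were higher in the transferred heart, with log2 differences up to 0.64 for Col15a1, and Col8a2 was lower, with a log2 difference of -0.23. Among the 5 hearts named by numbers (3 control, 2 transferred), 10 of 10 members had a log2 fold change below 0, and 5 of 10 did not overlap between the groups (Col1a2, Col3a1, Col4a1, Col4a2 and Col6a3), where 16.4% of tested genes separated that way. In those 5 hearts the log2 fold change was -0.49 for Col4a1 (edgeR unadjusted p = 0.0186, adjusted p = 0.268), -0.41 for Col4a2 and -0.45 for Col1a2, and 0 members passed the adjusted threshold. For 9 of 10 members the direction of the difference was therefore not the same within the 2 forms of identifier, Col8a2 being lower in both, and the single letter-named pair allows no test. The fibrillar to basement membrane log2 ratio was higher in the transferred heart by 0.12 within the letter-named pair and by 0.12 within the number-named hearts.

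Members varied together across the 7 hearts, which share library and scaling. The Pearson correlation of log2 CPM had a median of 0.83 over the 45 pairs of members, from 0.54 for Col4a2 with Col8a2 to 0.97 for Col5a2 with Col4a2. It was 0.96 for Col4a1 with Col4a2. Fibrillar chains were correlated with basement membrane chains (median 0.89 over 8 pairs) about as much as among themselves (median 0.89 over 6 pairs). The low correlations involved Col8a2 or Col16a1, the members with the fewest counts, although they were correlated with each other at 0.92. Col16a1 was also at 0.82 with Col6a3 and 0.80 with Col1a2, and the part of low counts was not tested. Among 5064 tested non-members with a mean of at least 10 CPM, those most like Col4a1 included Chst1 (0.97) and Plod1 (0.96). Those most like Col3a1 were 3110040M04Rik (0.94), Papss1 (0.94) and Gss (0.93). These correlations over 7 hearts are descriptions, taken as the highest of many.

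Of the 13 other collagen genes in the table, 8 passed the filter and 0 had an adjusted p under 0.05 in edgeR, with 2 at an unadjusted p under 0.05, both lower. These were Col4a3 and Col4a4, chains of the type IV trimer best known from the kidney glomerulus, which lie head to head on chromosome 1. Col4a3 (82586921 to 82722059, plus strand) held 12.2, 14.1, 18.2 and 20.9 CPM in control hearts and 10.8, 6.30 and 9.53 CPM in transferred hearts. Every transferred heart was below every control heart, with an estimated log2 change of -0.88 (SE 0.23) (edgeR unadjusted p = 0.00401, adjusted p = 0.165). DESeq2 called it lower (DESeq2 adjusted p = 0.0158).

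Col4a4 (82448419 to 82587034, minus strand) held 30.3, 36.3, 41.6 and 47.6 CPM in control hearts and 32.8, 16.5 and 30.9 CPM in transferred hearts. The groups overlapped, the log2 fold change was -0.54 (SE 0.24) and the adjusted p was 0.398 (edgeR). With 1 heart left out the log2 fold change of Col4a4 ran from -0.29, without transferred heart 2, to -0.72. The spans of these genes overlap by 114 bases on opposite strands. Whether the log2 fold change of this pair differed from that of Col4a1 and Col4a2 was not tested. The other tested collagens were Col20a1 (log2 fold change -0.35), Col25a1 (-0.28), Col26a1 (-0.68), Col27a1 (0.08), Col28a1 (-0.30) and Col9a2 (0.08), and the last was at 5 to 22 counts in a heart. With 1 heart left out, Col20a1 ran from -0.54 to -0.18 and Col25a1 from -0.49 to -0.0052. Col26a1 then ran from -0.99 to -0.47 and Col28a1 from -0.44 to -0.14. Col9a1, Col9a3, Col11a1, Col19a1 and Col24a1 were below the filter, and Col9a1 had 0 counts in all 7 hearts.

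Collagen chains are hydroxylated, folded with the help of the chaperone Serpinh1, trimmed outside the cell and crosslinked before they bear load. The genes of this path were listed by role, and 39 of 93 were in the table, 36 of them tested. By edgeR 1 was called higher, Mrc1, and 0 lower. The median log2 fold change was 0.07. Of 10 tested folding and modification genes 0 were called, and 7 had a log2 fold change below 0, with a median of -0.05. Serpinh1 held 438, 455, 387 and 622 CPM in control hearts and 495, 309 and 360.4 CPM in transferred hearts, an estimated log2 change of -0.29 (SE 0.19.) Control heart 4 was again the highest and transferred heart 2 the lowest. With 1 heart left out the log2 fold change of Serpinh1 ran from -0.51 to -0.14. The lysyl hydroxylase Plod1 had a log2 fold change of -0.16 and the prolyl isomerase Fkbp14 of 0.16.

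Of 4 tested processing and crosslinking genes 0 were called, with log2 fold changes of 0.17 for the transglutaminase Tgm2, 0.09 for the procollagen proteinase enhancer Pcolce and 0.06 for the procollagen peptidase Adamts3. With 1 heart left out the log2 fold change of Tgm2 ran from 0.0076 to 0.27. Of 5 tested fibril-associated genes 0 were called. Fibromodulin (Fmod), which binds type I fibrils, had an estimated log2 change of -1.76 (SE 0.57) (edgeR adjusted p = 0.267), from 3.23 to 11.3 CPM in control hearts and from 0.840 to 4.00 CPM in transferred hearts. DESeq2 called it lower (DESeq2 adjusted p = 0.0196). Without transferred heart 1 the edgeR log2 fold change of Fmod was -2.58, and over all fits with 1 heart left out the smallest was -1.38. Fibronectin (Fn1) was at 0.32 and dermatopontin (Dpt) at 0.11.

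Of 7 tested partners of type IV collagen in the basement membrane 0 were called, and 6 had a log2 fold change above 0, with a median of 0.22. The proteoglycan agrin (Agrn) held 77.8, 68.8, 89.9 and 84.2 CPM in control hearts and 137, 91.8 and 94.3 CPM in transferred hearts, so that all transferred hearts were higher, with an estimated log2 change of 0.43 (SE 0.15) (edgeR adjusted p = 0.288). Without transferred heart 1 the log2 fold change of Agrn was 0.22. The laminin chain Lamc3 had a log2 fold change of -0.91 with overlapping groups. The log2 fold changes of these partners and of the type IV chains had opposite signs in 6 of 7 cases, where 50.3% of all tested genes were below 0. Among these 6, Lamc1 was at 0.02 (SE 0.15). Lamb3 held 33.6, 86.9 and 33.3 CPM in transferred hearts 1 to 3. The intervals of Col4a1 and Col4a2 include 0, and the difference between partners and type IV chains was not tested.

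Of 6 tested genes of collagen breakdown, Mrc1 was called. It encodes a mannose receptor of macrophages that takes up collagen fragments, and it rose. Control hearts averaged 87.9 ± 13.0 CPM (SD, n = 4) and transferred hearts 149.9 ± 16.5 CPM (SD, n = 3). The log2 fold change was 0.77 with an edgeR adjusted p of 0.0384. It is also on the list of macrophage markers. The call was lost in 6 of the 7 fits that each left out 1 heart, with Mrc1 called only without transferred heart 3, while its log2 fold change stayed between 0.69 and 0.87. It was also lost with limma-voom, with the identifier form as a covariate and in the number-named hearts. Of 4 tested collagen receptors 0 were called. The leukocyte receptor Lair1 had a log2 fold change of 0.81 and Itga10 of -0.12. The platelet receptor Gp6 was at 2.03 with overlapping groups (edgeR adjusted p = 0.356). It held between 0.126 and 1.19 CPM in control hearts and 3.04, 2.61 and 0.296 CPM in transferred hearts 1 to 3.

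The cells that could carry these transcripts were checked by their markers. Of 13 fibroblast markers 7 were tested and 0 called, with a median log2 fold change of 0.05, and their summed level ran from 4822 to 6478 CPM in control hearts and from 4627 to 7074 CPM in transferred hearts. It was highest in transferred heart 1 and next in control heart 4, and lowest in transferred heart 2. Gsn alone made up 65.6% to 74.9% of that sum. Without Gsn, a split made after the data were seen, the sum was 1452 to 2007 CPM in control hearts and 1582 to 1779 CPM in transferred hearts, highest in control heart 4 and lowest in control heart 1. Dpt, Gsn and Pdgfra were at 0.11, 0.16 and 0.07. Dcn, Lum, Tcf21 and Col1a1 are not analysed here. Of 9 markers of activated fibroblasts 4 were tested and 0 called. Fap, a protease of activated fibroblasts, was at -0.49 (edgeR adjusted p = 0.338), Fn1 at 0.32 and Tnc at 0.09, and the summed level was 168 to 254 CPM in control hearts and 190.1 to 255 CPM in transferred hearts.

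Of 14 endothelial markers 11 were tested, and the water channel Aqp1 was called lower, with a log2 fold change of -1.01. Vwf, a clotting factor carrier made by endothelium, was at 1.17, with every transferred heart above every control heart (edgeR unadjusted p = 0.0069, adjusted p = 0.1997). The receptor Tie1 was at -0.28, with every transferred heart below every control heart (edgeR unadjusted p = 0.0055, adjusted p = 0.185). Vwf and Tie1 are named after their values were seen. Of the 11, 8 were above 0. The median over the 11 was 0.02, and the summed level was 4669 to 5551 CPM in control hearts and 4392 to 5368 CPM in transferred hearts. Of the 3 tested pericyte and smooth muscle markers 0 were called, with Rgs5 at -0.20, Kcnj8 at -0.11 and Abcc9 at 0.10. Of 7 tested cardiomyocyte markers 0 were called, with Tnnt2 at 0.13, Tnni3 at 0.09 and Actc1 at -0.17. Of the 3 tested mesothelial markers 0 were called, with Wt1 at 0.22, Upk3b at -1.09 and Lrrn4 at -0.65. Upk3b was at 0.129 CPM in control heart 2 and at 14.0 to 25.8 CPM in the other control hearts, and its log2 fold change ran from -2.11 to -0.56 with 1 heart left out.

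All 8 tested macrophage markers had a log2 fold change above 0, with a median of 0.96, and C1qb and Mrc1 were called higher. Their summed level ran from 419 to 612 CPM in control hearts and from 745 to 1096 CPM in transferred hearts. It was highest in transferred heart 2, the heart with the lowest collagen levels, and among control hearts it was highest in control heart 4, the heart with the highest. Of the 3 tested adipocyte markers Thrsp was called lower, with a log2 fold change of -1.11. The median of the 3 was -0.17, with 2 below 0, and their summed level was 412 to 474 CPM in control hearts and 329 to 389.9 CPM in transferred hearts, mostly from Adipor2. The defining adipocyte genes Plin1 and Cidec were at or near 0 in all hearts. With 1 heart left out in turn, edgeR called C1qb in 1, Aqp1 in 2 and Thrsp in 3 of 7 fits. Their log2 fold changes in those fits were 0.86 to 1.10, -1.14 to -0.90 and -1.23 to -1.04. The part of these cell types in the collagen values was not tested.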

How the data were processed

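RNA from 7 hearts was sequenced as pairs of 75-nucleotide reads, per the labels. The submitters' processing notes name bcl2fastq 2.20.0.422, cutadapt 2.5, STAR 2.7.2b, featureCounts 1.6.4, DESeq2 1.22.2 and the build GRCm38.p6, without roles. The deposited values are estimated counts per gene, since 4.63% had a fractional part, and strand use is not given in the sources used here. The analysed rows were the 20343 that are complete (1 broken off at the end was not used), so column totals are of this part of the genome and not the sequencing depth. All value columns were matched to samples and 0 were unused. To look for a repeated deposit of one library, counts of hearts of the same group were compared, and no pair agreed within sampling noise (chi-square per degree of freedom 17.4 to 77.2).

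Counts were rounded and fitted across all genes with edgeR 4.0.16 in R 4.3.3 (TMM scaling, filterByExpr, robust quasi-likelihood F test, Benjamini-Hochberg adjustment at 0.05), transferred minus control without covariates. CPM came from unrounded counts, and log2 CPM used a prior count of 2. Standard errors were the fold change over the root of F, and 95% intervals used the moderated degrees of freedom. These intervals rest on the dispersion of the fit, which includes variation between hearts. DESeq2 1.42.0, limma-voom (limma 3.58.1), other scalings and filters, the form of the identifiers and omission of each heart were alternatives. The fit was tested on simulated data.

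The members and the gene lists were chosen with earlier results of these data known. Named genes were the members, the other tested collagens, in each list the genes called or else the 3 with the smallest unadjusted p, and the 3 most correlated with Col3a1 and with Col4a1. Outside that rule, Vwf, Tie1, Lamc1, Lamb3, Adipor2, Plin1 and Cidec are named after their values were seen. Gm12963 is named for its overlap with Col16a1, some listed genes as not analysed, and some collagens as below the filter. Some genes that the rule names are not reported here.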

Additional observations from a re-analysis of the deposited data

Results flagged for a closer look

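For 51 results (genes and the class ratio), the highest and the lowest of the 4 control hearts were checked for a large gap to the nearest other control heart by Dixon's criterion. Of these, 2 stood apart and 0 were members, where chance gives about 1 in 20. Gp6, the collagen receptor of platelets, was at 1.19 CPM in control heart 3 and between 0.126 and 0.292 CPM in the other control hearts. The mesothelial marker Lrrn4 was at 0 CPM in control heart 2 and between 3.72 and 4.29 CPM in the other control hearts.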

How the results depend on the processing

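The number of members called was 0 in all 18 alternatives, with a lowest adjusted p of 0.268 in the 5 hearts with number identifiers (edgeR). The class ratio had its own alternatives (per kilobase, mean of log2 CPM, without Col3a1, number-named hearts, 1 heart left out), and its difference was 0.0927 to 0.160 in them. Over all genes 18 were called by edgeR, 252 by DESeq2, 0 by limma-voom, 0 with the identifier form as a covariate, 0 in the number-named hearts, 35 with total count scaling, 81 with all genes of at least 1 count, and 0 to 140 when 1 heart was left out. Other collagens called were 1 by DESeq2 (Col4a3) and 0 otherwise. Collagen pathway genes called were 1 in the reported fit, 2 by DESeq2, 0 by limma-voom, 0 with the covariate, 0 in the number-named hearts, and 0 to 1 when 1 heart was left out. In the number-named hearts the log2 fold change reversed for Col9a2 (-0.81), Itga10 (0.26), Pcolce (-0.19) and Adamts3 (-0.042), and with limma-voom for Lrrn4 (0.72), and the cause was not tested. With 1 heart left out, signs reversed within these log2 ranges: Col5a1 -0.22 to 0.045, Col15a1 -0.25 to 0.13, Col16a1 -0.20 to 0.16, Col27a1 -0.033 to 0.22, Col9a2 -0.58 to 0.34, Itga10 -1.67 to 0.31, Tnc -0.11 to 0.32, Tnni3 -0.0015 to 0.18, Actc1 -0.45 to 0.012, Gsn -0.013 to 0.36, Pdgfra -0.023 to 0.16, Pcolce -0.15 to 0.22 and Adamts3 -0.022 to 0.16. No paired analysis was possible because the labels give no number that ties a control heart to a transferred heart. Counts limit Col8a2, with 15 to 42 in a heart.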
